A study of Mus musculus with 19 samples.

Results

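Endogenous retroviruses of the ERVL group are remnants of ancient infections that now make up part of the mouse genome. Their reads and their CpG methylation were examined here in cystic embryoid bodies (cystic EBs, hollow aggregates of differentiating embryonic stem cells) and in mouse extra-embryonic and embryonic tissues. The members were all elements whose RepeatMasker class in the table of repeats outside genes is exactly LTR/ERVL. This gave 84906 elements under 110 repeat names, or 3.22% of the 2634743 elements in the table. They comprised 1951 MERVL-int elements, 3117 MERVL_2A-int elements, 26735 elements of the 6 names that start with MT2, and 53103 elements of other names such as MLT2, RMER, LTR16 and MER. The class LTR/ERVL-MaLR, with 323160 elements, was not included.

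RNA reads of repeats were deposited for 6 libraries in 3 groups of 2. Cystic EBs of the embryonic stem cell clone JN (XX), of C57Bl/6x129 background, were sampled at day 10 (d10) and day 15 (d15) of differentiation. Yolk sac endoderm (ysE, the outer epithelial layer of the visceral yolk sac, VYS) and VYS mesoderm were FVB, were separated by hand at E9.25, and each had libraries A and B. The mesoderm was collected with its vessels and basement membrane, and every sample of separated ysE, mesoderm and liver pooled a litter. CpG methylation came from whole genome bisulfite sequencing (WGBS) of ysE and fetal liver at E12.5 and of cystic EBs at d15. Each tissue had 1 library of a CastxFVB cross (CxF) and 1 of the reciprocal FVBxCast cross (FxC). The WGBS cystic EBs were clones CF-C2 and FC-A2, both XY, and so differed from the RNA clone, also in sex. Peaks of H3K4me3, a histone mark of active promoters, came from 1 library of whole E12.5 FVB VYS pooled over 2 litters. Gene expression was available for 11 RNA libraries. These added cystic EBs of clone A9 (XY, C57Bl/6x129, d10 and d15), 1 library of E12.5 FVB ysE and 2 of E12.5 FVB liver. ScriptSeq served for the A9 and liver RNA libraries and dUTP for clone JN and both E9.25 tissues. The E12.5 ysE library had a protocol without strand. EB clone, clone sex and library protocol therefore cannot be told apart. The labels name no engineered allele in any of these groups. The cystic EB group of the repeat table was 1 clone at 2 days, so its spread mixes time with technical variation, and p-values measure only the spread between these libraries. Background and tissue cannot be told apart between the EBs and the E9.25 tissues.

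An intact ERVL provirus has an internal part (names ending in -int), which codes for Gag and Pol but has no envelope gene, between a pair of identical long terminal repeats (LTRs) that carry the promoter and the polyadenylation signal. MERVL is the youngest mouse member, its internal part being MERVL-int and its LTR MT2_Mm. It is known for its burst of transcription in the 2-cell embryo and in rare 2-cell-like embryonic stem cells, where MT2_Mm also serves as a promoter for neighbouring genes. Recombination between the LTRs removes the internal part and leaves a solo LTR. MT2A, MT2B, MT2B1, MT2B2 and MT2C_Mm are LTRs of related, older insertions, and most remaining ERVL names are fragments that predate the mouse. Silencing of MERVL is known to involve histone H3K9 methylation, the histone demethylase LSD1 (Kdm1a), non-canonical Polycomb complexes and chromatin assembly factor 1.

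The LTR carries the start site, so the sequence around starts inside MT2_Mm is shown first. Of 32851 RefSeq promoter windows of GRCm38.p6, each running from 250 bases before to 50 bases after a gene start, 140 windows of 134 genes had their start inside an ERVL element. Of these starts 66 lay in MT2 names and 10 in MT2_Mm. The 5 windows below, picked by hand among those that lie wholly inside the LTR, show 4 of the 8 such MT2_Mm windows. The first 4 are MT2_Mm and the last is an MT2C_Mm element that holds the RefSeq start of Nxf7, coding for an X-linked member of the nuclear RNA export factor family. Each is written 5′ to 3′ on the strand of the gene, with the start 250 bases from the left end. Capitals mark CG dinucleotides, which can be methylated, the pattern GATTNAATC, and TATAA where it lies close before the start.

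Gm35974 start, MT2_Mm, chr16:3468210-3468509 (plus strand): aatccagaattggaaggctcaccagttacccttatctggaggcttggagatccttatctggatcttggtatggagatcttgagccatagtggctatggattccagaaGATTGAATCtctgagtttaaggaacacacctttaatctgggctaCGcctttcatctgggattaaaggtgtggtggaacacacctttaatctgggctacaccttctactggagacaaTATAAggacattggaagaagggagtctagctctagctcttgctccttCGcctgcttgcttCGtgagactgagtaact
Gm12790 start, MT2_Mm, chr4:101975056-101975355 (minus strand): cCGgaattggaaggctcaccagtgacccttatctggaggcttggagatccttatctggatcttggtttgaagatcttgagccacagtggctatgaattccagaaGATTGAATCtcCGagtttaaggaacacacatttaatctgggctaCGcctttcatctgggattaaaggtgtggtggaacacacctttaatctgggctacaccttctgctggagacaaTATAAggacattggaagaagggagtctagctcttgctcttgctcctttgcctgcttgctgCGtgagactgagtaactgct
Pemt start, MT2_Mm, chr11:60040139-60040438 (minus strand): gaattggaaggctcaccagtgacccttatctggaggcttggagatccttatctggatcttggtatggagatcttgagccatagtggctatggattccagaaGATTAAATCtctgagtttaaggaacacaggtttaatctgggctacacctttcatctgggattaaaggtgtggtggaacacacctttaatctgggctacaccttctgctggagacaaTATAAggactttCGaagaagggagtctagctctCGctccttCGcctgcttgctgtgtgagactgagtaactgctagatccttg
LOC115487209 start, MT2_Mm, chr9:20619256-20619555 (minus strand): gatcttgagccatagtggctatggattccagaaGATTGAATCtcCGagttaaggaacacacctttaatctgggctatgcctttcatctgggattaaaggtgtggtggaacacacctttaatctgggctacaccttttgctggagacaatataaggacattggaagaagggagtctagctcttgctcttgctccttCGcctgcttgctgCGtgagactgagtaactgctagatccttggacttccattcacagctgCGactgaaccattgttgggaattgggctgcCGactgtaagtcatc
Nxf7 start, MT2C_Mm, chrX:135598732-135599031 (minus strand): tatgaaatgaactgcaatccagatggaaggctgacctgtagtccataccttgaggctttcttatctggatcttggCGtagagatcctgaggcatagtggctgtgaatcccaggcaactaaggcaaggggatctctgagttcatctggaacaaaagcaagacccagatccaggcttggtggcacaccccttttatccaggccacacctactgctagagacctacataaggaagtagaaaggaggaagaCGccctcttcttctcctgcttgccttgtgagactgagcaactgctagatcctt

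The pattern GATTNAATC, in which N is any base, matches the core of homeodomain half-sites placed head to head and is its own reverse complement, so a match on one strand is a match on both. The 2 patterns were searched apart. It was present in all 10 windows that start in MT2_Mm, in 3 of 56 that start in another MT2 name and in 0 of 74 that start in any other ERVL name, against 0.268% of all 32851 windows. TATAA on the gene strand between 40 and 20 bases before the start was found in 80% of the MT2_Mm windows and in 3.31% of all windows. Anywhere in the window and on either strand, TATAA was in all 10 MT2_Mm windows and in 24.9% of all windows. The 8 MT2_Mm windows that lie wholly inside the LTR came from 7 LTRs, since 2 of them lie in the same element. Windows of different LTRs had a pairwise identity of 89.9 to 96.9% over the stretch that each pair shares (median 94.9%, 27 pairs). The starts lay 300 to 391 bases into the LTR. CG dinucleotides were few, with a median of 3.5 per MT2_Mm window and 7 per window over all starts. The build matched that of the methylation calls: 246 of 247 CpG calls inside the 140 windows fell on a CG of the RefSeq sequence.

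In the RNA libraries, the repeat table held 86063967 to 188223399 reads per library, of which 65.9 to 79.4% fell on repeats of RNA genes, such as ribosomal RNA. The ERVL elements received 1072070 to 2902173 reads per library. Of the repeat reads outside RNA-gene repeats, ERVL took 9.90% and 8.63% in cystic EBs at d10 and d15, 4.67% and 4.31% in ysE A and B, and 6.84% and 6.68% in mesoderm A and B. The order was cystic EBs, mesoderm, ysE, and the groups did not overlap. MaLR elements, for comparison, took 3.87 to 4.71% in all 6 libraries. The markers of each tissue stood where the labels put them: the summed RPKM (reads scaled to transcript length and library depth) of 8 ysE genes was 11802 and 13537 in E9.25 ysE and 1271 and 2248 in mesoderm, while that of 5 primitive erythroid genes was 43941 and 34249 in mesoderm and 854 and 1021 in ysE. In bulk samples such as these, fewer cells of a type and less RNA per cell cannot be told apart.

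MERVL-int carried most of this signal. How reads that match several copies were counted is not given. Whether a read adds more than once to these sums and shares is therefore unknown. The level of MERVL-int, in reads per 1000000 repeat reads after TMM scaling (CPM), was 21764 in cystic EBs at d10 and 17282 at d15. It was 7239 in ysE A and 6977 in ysE B, and 12120 in mesoderm A and 11566 in mesoderm B. The 3 groups were separate, with cystic EBs highest and ysE lowest. Cystic EBs (19523 ± 3169, SD, n = 2) exceeded ysE (7108 ± 185, n = 2) 2.75-fold, a log2 fold change of 1.46 ± 0.14 (SE) with FDR = 0.00248 in edgeR's quasi-likelihood test over 1193 repeat names. Mesoderm, with a mean of 11843 over its 2 libraries, exceeded ysE 1.67-fold (log2 fold change of ysE over mesoderm -0.74 ± 0.14, FDR = 0.0227). The difference of 0.72 ± 0.14 between cystic EBs and mesoderm did not pass (FDR = 0.0613), although it passed with DESeq2, without the d15 library, without RNA-gene repeats and with the copies of chromosomes 10 to 19 and X in place of all copies of MERVL-int and MT2_Mm. With 2 libraries against 2, an exact permutation test cannot give p below 0.33, so the tests rest on the spread shared across names.

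MT2_Mm, the LTR that carries the promoter of MERVL, followed the same order. It had 2370 and 1954 CPM in cystic EBs at d10 and d15, 952 and 949 in ysE A and B, and 1637 and 1379 in mesoderm A and B. The groups did not overlap. Cystic EBs were 2.27-fold above ysE (log2 fold change 1.19 ± 0.14, FDR = 0.00396 in edgeR), ysE was 1.59-fold below mesoderm (-0.67 ± 0.14, FDR = 0.0284), and cystic EBs over mesoderm gave 0.52 ± 0.14 (FDR = 0.128), which passed with DESeq2. For MERVL-int and MT2_Mm the call between cystic EBs and ysE stood in every alternative run, with log2 fold changes of 1.28 to 1.66 for MERVL-int and 1.04 to 1.37 for MT2_Mm. The call between ysE and mesoderm was less stable. MERVL-int lost it without ysE A, ysE B, mesoderm A or mesoderm B (log2 fold change -0.77 to -0.70), and MT2_Mm lost it without any 1 of the 6 libraries (-0.78 to -0.54) and with the replicate block.

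**Figure D1:**
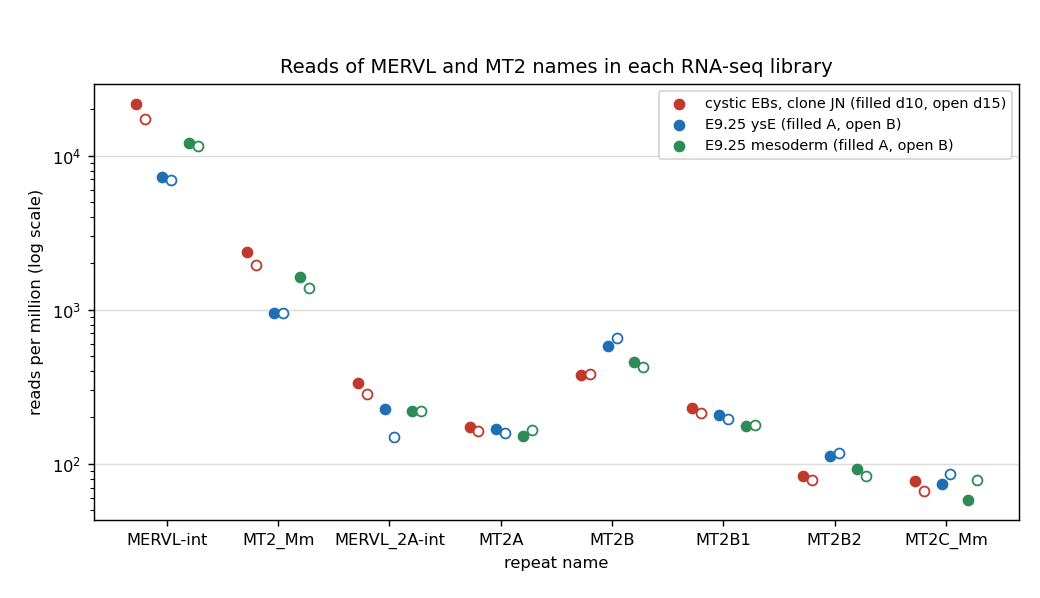
Reads per 1000000 repeat reads (log scale) of the 2 MERVL and 6 MT2 names, with 1 point per RNA library of cystic EBs, ysE and mesoderm. MERVL-int and MT2_Mm are highest in cystic EBs and lowest in ysE, whereas MT2B and MT2B2 are highest in ysE.

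Other MERVL and MT2 names behaved differently. MERVL_2A-int, an internal part annotated apart from MERVL-int, had 334 and 281 CPM in cystic EBs, 226 and 149 in ysE, and 220 in each mesoderm library. It was higher in cystic EBs than in ysE (log2 fold change 0.71 ± 0.21, FDR = 0.0481) but lost this call in 8 alternatives, among them the fit without its most-read element (0.51) and those without cystic EB d10, cystic EB d15, ysE B, mesoderm A or mesoderm B (0.46 to 0.88). MT2B ran the opposite way, with 375 and 383 CPM in cystic EBs, 582 and 657 in ysE, while mesoderm had 460 and 423. It was 1.63-fold lower in cystic EBs than in ysE (-0.71 ± 0.11, FDR = 0.00844) and 1.4-fold higher in ysE than in mesoderm (0.49 ± 0.11, FDR = 0.0332). The first call was lost without cystic EB d10 or d15 (-0.69 and -0.67), and the second without any 1 library other than ysE A (0.40 to 0.55). MT2B2 had 83.4 and 78.6 CPM in cystic EBs, 112 and 117 in ysE, while mesoderm had 92.7 and 83.2, and was lower in cystic EBs than in ysE (-0.50 ± 0.11, FDR = 0.0205), a call lost without cystic EB d10, cystic EB d15 or ysE B (-0.55 to -0.41) and at -0.77 without its most-read element. Its excess in ysE over mesoderm (log2 fold change 0.38) passed only with DESeq2, with relative log expression scaling and without its most-read element. MT2A, MT2B1 and MT2C_Mm passed in no comparison in edgeR, and MT2B1 was higher in cystic EBs than in mesoderm with DESeq2. MT2A ranged from 152 to 172 CPM over the 6 libraries, MT2B1 from 175 to 228 and MT2C_Mm from 57.7 to 85.6.

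The remaining ERVL names, summed, had 1253 and 1265 CPM in cystic EBs, 1683 and 1699 in ysE, while mesoderm had 1344 and 1316. The higher share of the class in cystic EBs came from MERVL-int and MT2_Mm, since the sum of these remaining names was lowest there, although 16 of them were among those called higher in cystic EBs than in ysE. Of 110 names 108 passed the filter on low counts. Between cystic EBs and ysE, 19 names were higher and 19 lower in edgeR at FDR 5%, where 16.9% and 17.2% of all 1193 names were called higher and lower. The median log2 fold change of the ERVL names was 0.03, the same as that of all names (0.03). Between ysE and mesoderm, 11 were higher and 10 lower in ysE, against 10.6% and 9.3% of all names, with a median of 0.14 against -0.02. DESeq2 called 22 higher there, against 18.4% of all names. Between cystic EBs and mesoderm no ERVL name passed in edgeR, where 1.51% of all names were called in each direction. DESeq2 called 6 higher and 4 lower there, against 6.05% and 5.35% of all names. The libraries of the 2 groups did not overlap for 77 of the 108 names between cystic EBs and ysE (71.4% of all names), for 73 between ysE and mesoderm (62.7%) and for 59 between cystic EBs and mesoderm (53.8%). The shares of ERVL names called, and of those without overlap, were near those of all repeats.

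How far the counts of all names moved in the fits below is not given here, so the moves are not shown to be particular to ERVL. The counts of called ERVL names moved with single libraries. For cystic EBs against ysE they were 3 higher and 3 lower without cystic EB d10, 6 and 1 without cystic EB d15, 12 and 16 without ysE A, and 8 and 16 without ysE B. Between ysE and mesoderm they were 7 and 2 without ysE A, 6 and 1 without ysE B, 0 and 0 without mesoderm A, and 2 and 2 without mesoderm B or without either cystic EB library.

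**Figure D2:**
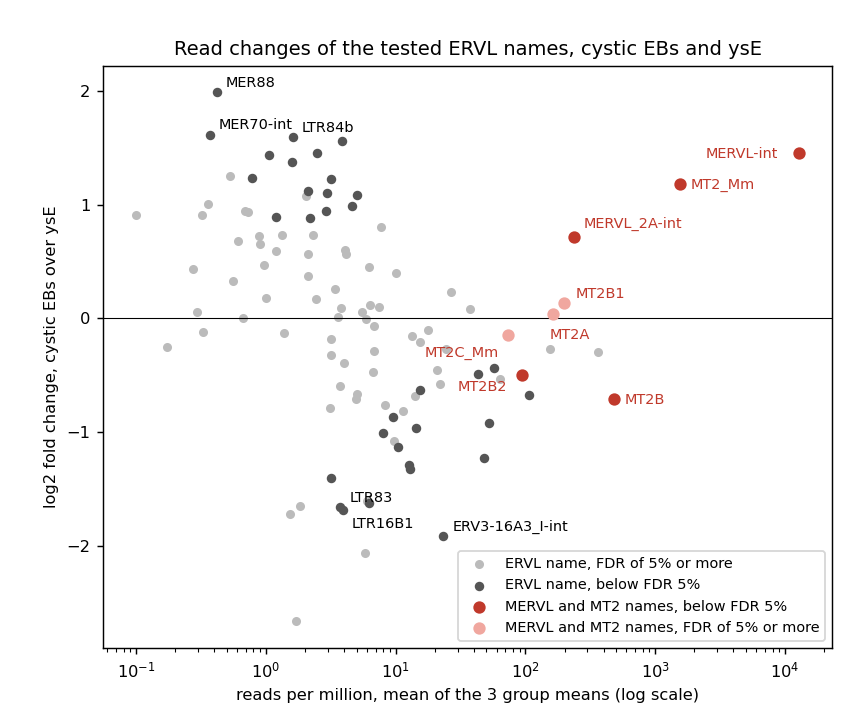
Log2 fold change of cystic EBs over ysE against the mean level in reads per 1000000 repeat reads (log scale), with 1 point per tested ERVL name. MERVL-int lies at the far right at 1.46 with MT2_Mm at 1.19, while MT2B lies below the zero line at -0.71.

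Among the other names, those with the most reads were RMER15, RMER10A and RMER10B. RMER15 had 319 and 339 CPM in cystic EBs, 374 and 436 in ysE, while mesoderm had 378 and 330, and passed in no comparison. RMER10A had 149 and 149 CPM in cystic EBs, 179 and 180 in ysE, while mesoderm had 136 and 138, and was higher in ysE than in mesoderm (log2 fold change 0.39 ± 0.09, FDR = 0.0365). RMER10B had 88.7 and 90.9 CPM in cystic EBs, 131 and 155 in ysE, while mesoderm had 74.8 and 101, and was higher in ysE than in mesoderm (0.70 ± 0.17, FDR = 0.0433) and than in cystic EBs (-0.67 ± 0.17, FDR = 0.0334). ysE was highest for RMER10A and RMER10B, but the calls moved with single libraries: RMER10A lost its call without any 1 of the 6 (log2 fold change 0.38 to 0.40), RMER10B lost the one against mesoderm without any 1 library other than mesoderm B (0.50 to 0.81), and the one against cystic EBs without cystic EB d10, cystic EB d15 or ysE B (-0.66 to -0.53).

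The largest changes past the test fell on names with few reads, often read from few elements. MLT2C2 had 8.82 and 7.85 CPM in cystic EBs, 19.98 and 21.8 in ysE, while mesoderm had 10.1 and 8.71 (ysE over mesoderm 1.15 ± 0.17, FDR = 0.0147). The call was lost without mesoderm A or mesoderm B (1.04 to 1.26) and with the replicate block. A single element supplied 39.8% of the MLT2C2 reads over the 6 libraries, and without that element the sign turned, to -0.37 for ysE over mesoderm and to 0.15 for cystic EBs over ysE. LTR83 turned likewise, from -1.66 to 0.25 for cystic EBs over ysE, without the element that held 55.0% of its reads. The direction of the change at MLT2C2 and LTR83 thus rested on 1 element each. ERV3-16A3_LTR and LTR101_Mam were also higher in ysE than in mesoderm (1.13 and 0.97), and both lost the call without their most-read element (0.61 and 0.30) and without any 1 of the 6 libraries. LTR75 was lower in ysE (0.713 and 0.584 CPM) than in mesoderm (6.47 and 1.76), a log2 fold change of -2.67 ± 0.63 (FDR = 0.0365) with mesoderm libraries that themselves differed widely, and lost the call without any 1 library other than mesoderm B (-2.81 to -1.44). Without its most-read element it stood at -1.48. LTR84a and MER88 were lower in ysE by -1.76 ± 0.29 and -1.60 ± 0.32 on the log2 scale (FDR = 0.0169 and 0.0251). Cystic EBs exceeded ysE at MER88 (1.99), MER70-int (1.61) and LTR84b (1.59), and were below ysE at ERV3-16A3_I-int (-1.92), LTR16B1 (-1.69) and LTR83 (-1.66). Of these 6, LTR84b kept its call in every alternative run. MER88 lost it without cystic EB d10 (1.81), ERV3-16A3_I-int without cystic EB d10 or d15 (-1.99 and -1.80), MER70-int and LTR16B1 without their most-read element (0.75 and -0.59) and without either cystic EB library, MER70-int also without either ysE library, and LTR83 without any 1 of these 4 libraries (-2.04 to -1.32). Against mesoderm, LTR84a lost its call without ysE A or mesoderm A (-1.61 and -1.56), and MER88 without its most-read element or any 1 library (-1.79 to -1.32).

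Most MERVL-int reads were placed on long copies. The 451 copies of at least 4500 bases (median 5326 bases) held 88.7% of the MERVL-int reads at d10 and 73.8% of the MERVL-int bases. Per kilobase they had 8.08 and 6.39 CPM in cystic EBs, 2.68 and 2.57 in ysE, while mesoderm had 4.49 and 4.29. The 479 copies of 500 bases up to that length had 2.59 and 2.07 in cystic EBs, 0.888 and 0.884 in ysE, while mesoderm had 1.49 and 1.4. The 1021 shorter copies had 5.07 and 4.47 in cystic EBs, 1.66 and 1.75 in ysE, while mesoderm had 2.71 and 2.54. The log2 ratio of cystic EBs to ysE was 1.46, 1.4 and 1.48 in the 3 length classes.

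Among the long copies every one had reads, and the ratio of cystic EBs to ysE was much alike from copy to copy, with a median log2 ratio of 1.48 and quartiles of 1.4 and 1.63. The number of reads per copy, however, followed the chromosome. At d10 the median was 13964 reads per copy on chromosome 1 (28 copies) and 634 on chromosome X (29 copies), a 22-fold difference, and the same fall was present in each of the 6 libraries. IAPEz-int, an internal part of the unrelated ERVK group, showed it too, from 8894 to 677 reads per copy over 715 long copies. How reads that match several copies were assigned is not given in the sources used here, so a read count of a single MERVL-int copy is not a measure of the transcription of that copy, and the cause of the fall was not tested. The ratio between tissues depended less on the chromosome: the median log2 ratio of cystic EBs to ysE was 1.38 on chromosome 1 and 1.64 on chromosome X. With read placement unknown, a like ratio across copies, length classes and chromosomes does not show that each copy changed. The 5 most-read copies of MERVL-int and MT2_Mm were all MERVL-int copies, 4 of them on chromosome 1 and 1 on chromosome 2. The most-read, at chr1:34645270-34650556 (mm10), had 20318 and 15150 reads in cystic EBs, 6249 and 9508 in ysE, while mesoderm had 10431 and 10369.

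**Figure D3:**
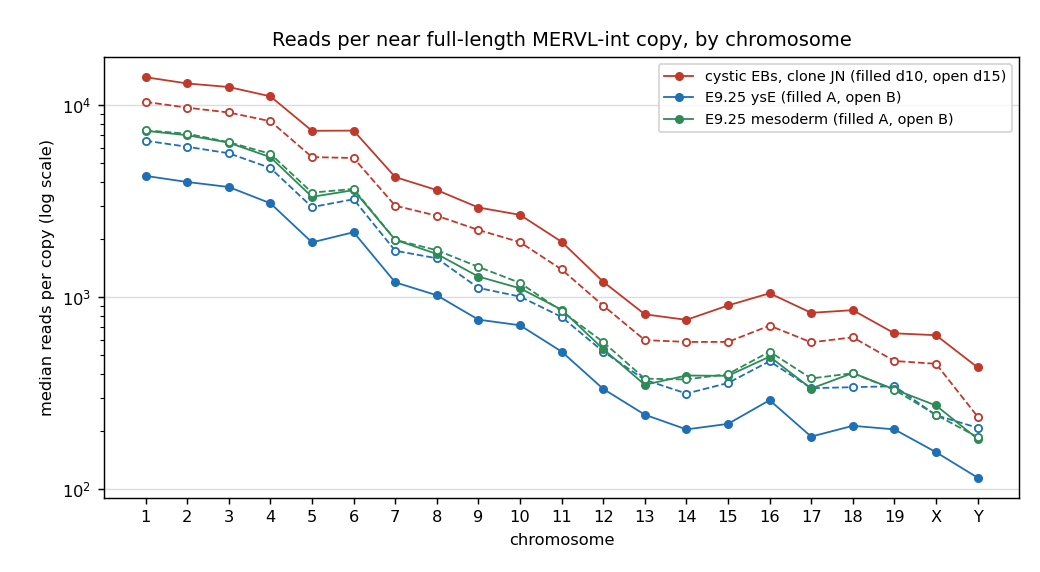
Median reads per MERVL-int copy of at least 4500 bases (log scale) on each chromosome, with 1 line per RNA library. All 6 lines fall from chromosome 1 to the later chromosomes, from 13964 to 634 reads on chromosome X at d10, and lie roughly in parallel.

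MT2_Mm LTRs were split into those within 100 bases of a MERVL-int element (1103 elements) and the others, called solo here (895). Attached LTRs had 3.98 and 3.29 CPM per kilobase in cystic EBs, 1.52 and 1.51 in ysE, while mesoderm had 2.66 and 2.26. Solo LTRs had 0.774 and 0.630 in cystic EBs, 0.416 and 0.420 in ysE, while mesoderm had 0.660 and 0.530. In every library the attached LTRs had more reads per kilobase than the solo ones. The order of the groups was the same in both classes, and the log2 ratio of cystic EBs to ysE was 1.26 for attached and 0.75 for solo LTRs, a difference that was not tested. Methylation was alike: 71.0% and 57.3% for attached against 66.5% and 62.3% for solo LTRs in ysE, 83.9% and 80.6% against 80.8% and 83.1% in liver, with cystic EBs at 89.5% and 88.5% against 91.6% and 86.0%, CxF first.

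Single elements were tested over 239554 elements of all classes, of which 8035 were ERVL. Between cystic EBs and ysE, 512 ERVL elements were higher and 393 lower (edgeR, FDR 5%), against 3.4% and 8.63% of all elements. Of the 512, 371 were MERVL-int copies, out of 1136 tested, while 5 MERVL-int copies were lower. Of 1412 tested MT2_Mm elements only 19 were higher and 7 lower, and over all MT2 names 73 elements were higher and 145 lower. How reads that match several copies were placed is not given, so the copies cannot be taken as independent observations. Between ysE and mesoderm 28 were higher and 13 lower in ysE, against 0.96% and 0.283% of all elements. Elements at 0 in the whole group where they were lower were 8 of the 28, 7 of the 13, 44 of the 512 and 73 of the 393. These entered the fit only through other groups, so their calls are no test of a difference. No ERVL element passed between cystic EBs and mesoderm (0% of all elements in either direction), where 993 were higher and 491 lower at an unadjusted p under 0.05, against 7.52% and 9.97% of all elements. Every element call was lost when any 1 library was left out, so the elements below are best read by their counts.

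Some elements had reads in 1 tissue type alone. An MLT2C2 fragment at chr6:57540493-57540585 (mm10), 93 bases long, had 1246 and 2291 reads in ysE A and B and 0 in the other 4 libraries, at least 960-fold above mesoderm at a floor of 3 reads per group. An RMER10B fragment at chr7:127159043-127159090 had 543 and 981 reads in ysE and 0 elsewhere, at least 414-fold above mesoderm. An RMER15 element at chr1:138941821-138942235 had 272 and 565 reads in ysE, 0 in mesoderm, and 50 and 42 in cystic EBs. These were the elements with the largest rise in ysE over mesoderm. In the other direction, neighbouring MT2B and MT2_Mm fragments at chr14:3117281-3117415 and chr14:3127257-3127342 had 0 reads in ysE. The first had 178 and 145 reads in cystic EBs and 65 and 130 in mesoderm. The second had 176 and 145 in cystic EBs and 63 and 128 in mesoderm. Their counts were thus nearly the same in each library. With read placement unknown, these fragments cannot be taken as separate observations. An RMER15-int element at chr1:7315040-7315187 had 148 and 186 reads in cystic EBs, 0 in ysE, while mesoderm had 56 and 72, at least 131-fold higher in cystic EBs than in ysE. An MT2B fragment at chr4:145662212-145662230 had 77 and 86 reads in cystic EBs, 0 in ysE, while mesoderm had 63 and 108. An MLT2B5 element at chr9:7712101-7712387 had 346 and 641 reads in ysE, 0 in cystic EBs, while mesoderm had 0 and 1. Elements at 0 in a whole group entered the fit through the other groups, so no test is given for them. Background differs between the EBs and the E9.25 tissues, while ysE and mesoderm are both FVB. The part of background in such counts of single elements was not tested.

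CpG methylation of the ERVL elements was lowest in ysE and highest in cystic EBs. Over all ERVL CpG reads it was 61.9% and 53.5% in ysE (CxF and FxC), 75.9% and 77.7% in liver, while cystic EBs had 88.1% and 84.3%, from 36032 to 69868 reads per library. The groups did not overlap. The CpG calls of the 16 chromosomes that all 6 files hold were shallow, with a median of 1 read per call in every library, so methylation was summed by name. Over all repeats outside genes it was 63.7% and 56.3% in ysE, 75.4% and 77.8% in liver, while cystic EBs had 84.9% and 80.1%. Over the calls outside all of those repeats it was 68.7% and 61.2% in ysE, 78.2% and 80.4% in liver, while cystic EBs had 87.7% and 83.6%. The order was the same in both.

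MERVL-int was methylated at 69.6% and 62.6% in ysE, 80.6% and 81.3% in liver, while cystic EBs had 90.7% and 89.5%. From 2867 to 11852 reads lay behind each value. The groups did not overlap. ysE was below liver by 14.9 percentage points (66.1 ± 4.93 against 81.0 ± 0.51, SD, n = 2 each, edgeR FDR = 0.00212). Cystic EBs were above ysE by 24.0 points (90.1 ± 0.87, edgeR FDR = 2.79e-10). As for reads, the methylation tests rest on the spread shared across names, with 2 libraries per tissue. The size of such an FDR is thus no measure of replication. The difference of 9.11 points between cystic EBs and liver passed in edgeR (FDR = 0.0159) but not in limma on percentages (FDR = 0.283), nor without either liver library or without cystic EB CxF (8.49 to 9.47 points). The call of ysE against liver was lost without ysE FxC, liver CxF or liver FxC (-15.3 to -11.4 points).

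MT2_Mm was close to it, with 69.1% and 59.7% in ysE, 82.5% and 81.8% in liver, while cystic EBs had 90.6% and 87.0%. MERVL_2A-int had 57.8% and 52.0% in ysE, 75.4% and 76.2% in liver, while cystic EBs had 87.5% and 82.4%. MT2A had 61.8% and 50.4% in ysE, 75.2% and 75.8% in liver, while cystic EBs had 88.4% and 81.0%. For these names, too, the 3 groups were separate. MT2B had 57.2% and 46.2% in ysE, 68.9% and 72.3% in liver, while cystic EBs had 76.7% and 68.5%, so that cystic EBs and liver overlapped. MT2B1, MT2B2 and MT2C_Mm lay between 42.3% and 63.2% in ysE, 65.9% and 77.0% in liver, while cystic EBs had 66.8% and 82.7%. All 6 MT2 names and both MERVL names were below liver in ysE and above ysE in cystic EBs in edgeR, with largest FDRs of 0.0156 and 0.000826. Without liver FxC all 8 lost the call against liver (-20.5 to -14.5 points), and MT2A stood at -12.2 points with the mean over elements. MT2B2 lost the call of cystic EBs over ysE (22.2 points) without cystic EB CxF (14.2) and with at least 3 reads per CpG (18.3).

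**Figure D4:**
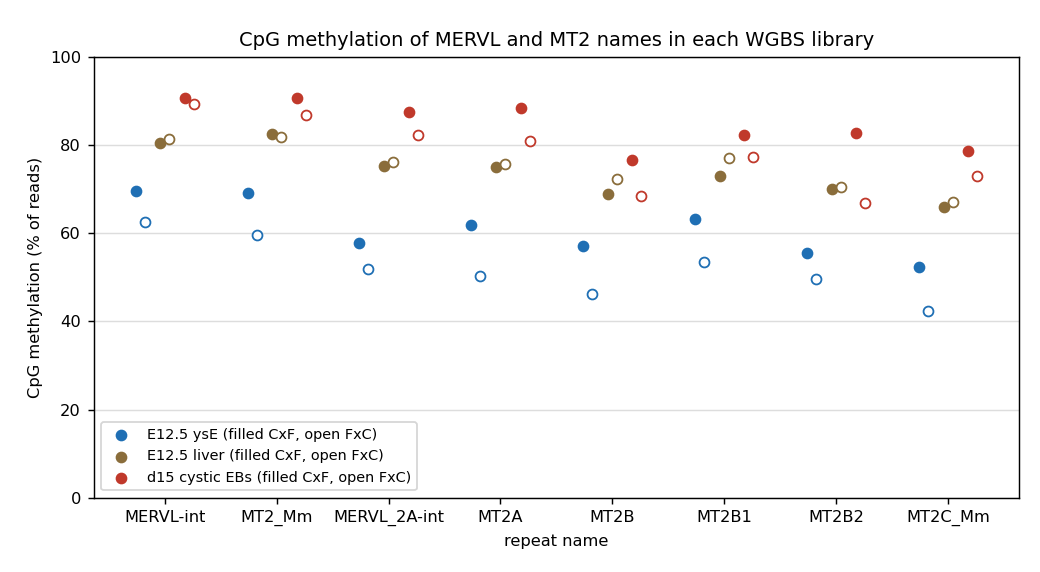
CpG methylation in percent of reads for the 2 MERVL and 6 MT2 names, with 1 point per WGBS library of ysE, liver and cystic EBs. ysE lies lowest for every name, and cystic EBs overlap liver for MT2B and MT2B2.

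Over the 72 ERVL names with at least 50 CpG reads in every library, 56 were lower in ysE than in liver and 0 were higher, against 84% of all 807 names called lower. Limma on percentages called 67 lower, against 87.4% of all names. The median difference was -19.4 points for ERVL and -18.7 for all names. In cystic EBs against ysE 71 were higher, with MER74B the exception, against 97.4% of all names, and the medians were 30.6 and 27.3 points. Between cystic EBs and liver 23 were higher in edgeR, against 25.9% of all names. Limma called 0 of them, and 0% of all names. In the other direction 0 were called lower, against 0.124% of all names. For cystic EBs against ysE limma called 71 higher, against 96.7% of all names. The libraries did not overlap for 70 of the 72 names between ysE and liver (95.9% of all names). They did not overlap for 63 between cystic EBs and liver (74.1%) and for 71 between cystic EBs and ysE (98.6%). Counts of all names are not given for the fits below with a library left out. The count of 56 was 20 without ysE FxC, 29 without liver CxF and 4 without liver FxC, and the count of 23 was 0 without either liver library or cystic EB CxF and 36 without cystic EB FxC.

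The largest differences past the test belonged to names outside MERVL and MT2. LTR52 was methylated at 53.4% and 24.7% in ysE, 82.0% and 78.8% in liver, while cystic EBs had 91.0% and 95.3%, from 77 to 146 reads per library. Its ysE libraries lay far apart, and it was the name with the largest difference in both comparisons with ysE, at -41.3 points against liver and -27.0 without ysE FxC. LTR40b and HERV16-int were below liver in ysE by 34 and 31.7 points (FDR = 2.29e-05 and 0.00255 in edgeR), and HERVL40-int and MER70B were above ysE in cystic EBs by 42.0 and 41.4 points. LTR16A2, MER77 and LTR16E2 showed the largest excess of cystic EBs over liver, at 21.0, 20.2 and 18.2 points. All 3 lost the call with limma, without either liver library and without cystic EB CxF, where LTR16E2 fell to 9.90 points. HERV16-int lost its call against liver without liver FxC (-28.4).

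Reads and methylation can be set side by side for MERVL-int. Cystic EBs had the most MERVL-int reads and the highest methylation (90.1%), and ysE the fewest reads and the lowest methylation (66.1%). The RNA came from E9.25 ysE and clone JN, which is XX. The methylation came from E12.5 ysE and clones CF-C2 and FC-A2, which are XY and of another background. No relation across samples could therefore be tested.

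Few ERVL elements overlapped an H3K4me3 peak of the E12.5 VYS. Of 84906 elements 309 (0.364%) overlapped 1 of the 22343 peaks, as did 0.159% of MaLR, 0.339% of ERVK and 0.714% of ERV1 elements. MERVL-int had 1 such element of 1951 and MT2_Mm 4 of 1998. How H3K4me3 reads that match several copies were placed is not given, so few peaks in these names do not show a lack of the mark. MT2B (48), RMER15 (43), RMER10A (35), MT2B2 (23) and RMER10B (22) had the most. In MT2B2, RMER10A and RMER10B these were 1.13%, 1.08% and 0.992% of the elements. Higher shares occurred in names with few elements in a peak, up to 5% (2 of 40) in LTR75B, and no share was tested. The library held all VYS layers and was not replicated, so the layer that carried a peak is unknown. Of the 309 elements 189 (61.2%) overlapped a peak that held no RefSeq start, where 55.2% of all peaks held none. The first share counts elements outside genes and the second counts all peaks, so they are not on the same footing. The median MACS score, which grows with the evidence for a peak, was 1372 for the 282 peaks over ERVL elements and 863 for all peaks.

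Genes whose RefSeq start lies in an ERVL element were then followed. Of the 134 genes 29 were in the expression table and 16 passed the filter on counts. Against E9.25 ysE, cystic EBs had 0 of them higher and 5 lower (edgeR over 24858 transcripts), against 27.1% and 23.2% of all transcripts. Between ysE and mesoderm 5 were higher and 3 lower, against 13.7% and 16.9%. Against liver 3 were higher and 4 lower, against 24.6% and 20.9%. Expression is that of the gene's transcript with the most reads, which need not be the one that starts in the element. The genes below were picked after their values were seen.

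Nxf7 had the highest level of them in ysE. Its start lies 285 bases into the MT2C_Mm element shown above, which overlapped a peak with a score of 3100. It had 190 and 197 RPKM in E9.25 ysE and 169 in E12.5 ysE, against 13.7 and 25.6 in mesoderm and 0.437 and 0.225 in liver. Cystic EBs had 42.1, 13.8, 71.7 and 26.7 (d10 A9, d10 JN, d15 A9, d15 JN). ysE stood above every other library. Its log2 fold change was 3.61 ± 0.74 for ysE over mesoderm (FDR = 0.00554), -2.76 ± 0.56 for cystic EBs over ysE (FDR = 0.00312) and 6.54 ± 0.84 for cystic EBs over liver (FDR = 0.00033). The call against mesoderm was lost without mesoderm A (3.21). The reads placed on the LTR itself did not follow the gene: ysE B had 2694, ysE A 105, cystic EBs 141 and 224, and mesoderm 99 and 251.

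Slc28a2, a sodium-coupled nucleoside transporter with a start in MT2A, had 8.81 and 9.04 RPKM in E9.25 ysE, against 0.632 and 1.16 in mesoderm and 1.19 to 3.13 in cystic EBs, and was lower in cystic EBs than in ysE (log2 fold change -2.39 ± 0.39, FDR = 0.00104). In E12.5 ysE it stood at 0.232 RPKM. Apol7a, an apolipoprotein L family member with a start in an MT2B1 element under a peak (score 486), had 2.15 and 2.16 RPKM in E9.25 ysE and 0.077 and 0.228 in mesoderm (4.12 ± 1.37, FDR = 0.0471, lost without any 1 of these 4 libraries, at 3.53 to 5.16). Hsd3b6, a steroid dehydrogenase with a start in MT2A, was low in cystic EBs (0.039 to 0.310 RPKM) and highest in liver (15.8 and 13.0). Arih2, a ubiquitin ligase with a start in MT2_Mm, was read at 12.9 to 33.5 RPKM in all 11 libraries, and that MT2_Mm element had 67 and 76 reads in cystic EBs, 7 and 3 in ysE, while mesoderm had 9 and 0. The gene itself was lower in cystic EBs than in ysE (-0.83 ± 0.25, FDR = 0.0205, lost without cystic EB d15 A9 or either ysE library, at -0.83 to -0.67), and the log2 fold change was -0.39 with the 6 dUTP libraries alone. These hold the clone of the repeat table, JN, in which it had 22.8 and 27.5 RPKM against 26.4 and 25.1 in E9.25 ysE. RPKM is not TMM-scaled, unlike the fold changes, so they are on different scales. The MT2_Mm element at the start of LOC115487209, among the sequences above, had 498 and 324 reads in cystic EBs, 122 and 197 in ysE, while mesoderm had 283 and 236, whereas that at the start of Gm12790 had 162 and 122, 136 and 189, and 80 and 111.

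**Figure D5:**
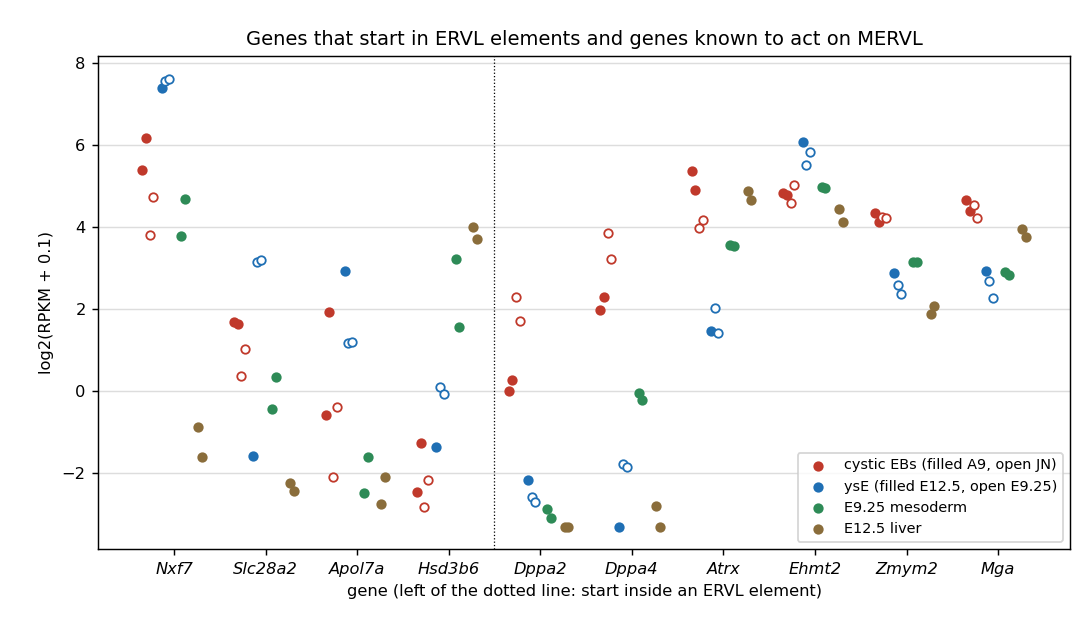
Expression as log2(RPKM + 0.1) of 4 genes that start in an ERVL element and 6 genes known to act on MERVL, with 1 point per library in the 11 RNA libraries. Nxf7 is highest in ysE, Dppa2 and Dppa4 are highest in cystic EBs, and Ehmt2 is lowest in liver.

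Genes of 3 lists were then examined, which hold repressors of MERVL, activators of MERVL and genes of the 2-cell stage. Of 27 genes of its repression, all tested, cystic EBs had 4 higher and 3 lower than the E9.25 ysE libraries, where 27.1% and 23.2% of all transcripts were called. Those higher were Atrx, a chromatin remodeller, Mga and Zmym2, which act with Polycomb and LSD1 complexes, and Hdac2, a histone deacetylase (log2 fold changes 2.55, 1.54, 1.33 and 0.71). Hdac2 lost its call without ysE A or ysE B (0.67 to 0.86). Those lower were Ehmt2, the H3K9 methyltransferase G9a, and the Polycomb subunits Pcgf6 and L3mbtl2 (-1.31, -1.18 and -0.82). Pcgf6 and L3mbtl2 lost theirs without ysE A or ysE B, and with the 6 dUTP libraries alone Pcgf6 stood at -0.58 and L3mbtl2, at -0.49, no longer passed. Pcgf6 had 15.3 RPKM or more in the JN and 6.92 or less in the A9 libraries, against 18.2 and 18.5 in E9.25 ysE. Ehmt2 had 24.0 to 32.5 RPKM in cystic EBs, 45.7 and 56.4 in E9.25 ysE, against 31.2 and 30.9 in the mesoderm and 21.6 and 17.3 in the liver libraries. ysE was highest. The list had a median of -0.24 against 0.17 for all transcripts. Between ysE and mesoderm Ehmt2, L3mbtl2 and Zfp42 were higher (1.03, 1.01 and 3.26) and Atrx lower (-1.51), against 13.7% and 16.9% of all transcripts. Atrx and L3mbtl2 lost these calls without any 1 of the 4 ysE and mesoderm libraries (-1.90 to -1.23 and 0.92 to 1.04), Ehmt2 without ysE B or either mesoderm library (0.87 to 1.06) and Zfp42 without mesoderm A (3.03). Against liver, in cystic EBs, 6 were higher and 6 lower, where 24.6% and 20.9% of all transcripts were called, and the calls of Ehmt1, Setdb1, E2f6, Uhrf1, Kdm1a, Hdac2 and Pcgf6 were lost without at least 1 of the liver libraries. The calls of Rnf2 and Zmym2, higher in cystic EBs (log2 fold changes 2.47 and 1.95), stood in every alternative. So did those of Chaf1a, a subunit of chromatin assembly factor 1, and Dnmt1, the maintenance DNA methyltransferase, lower there (-1.77 and -1.52). Zfp42 was also called higher (9.44), with 6 and 0 reads in the liver libraries. Without liver A its liver group stood at 0, so that fit is no test of it. Kdm1a, the LSD1 demethylase, had 53.3 to 87.0 RPKM in cystic EBs and 40.4 and 40.8 in E9.25 ysE and did not pass there (0.41 ± 0.22, FDR = 0.144).

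Of 5 listed activators, Dppa2 and Dppa4, which act upstream of Dux in embryonic stem cells, were higher in cystic EBs than in ysE. Dppa2 had 0.888, 4.79, 1.09 and 3.15 RPKM in cystic EBs (d10 A9, d10 JN, d15 A9, d15 JN), 0.065 and 0.052 in E9.25 ysE, while mesoderm had 0.036 and 0.015 (cystic EBs over ysE 4.95 ± 0.91, FDR = 0.00248). Dppa4 had 3.82, 14.4, 4.8 and 9.14 in cystic EBs, 0.191 and 0.175 in ysE, while mesoderm had 0.864 and 0.755 (5.01 ± 0.83, FDR = 0.00109). Cystic EBs stood above every tissue library for both. Of the activators, Dppa4 and Nelfa were also called higher in cystic EBs than in liver, where Dppa4 had 6 and 0 reads. Dppa2 was listed at 0 in liver, so no test is given for it there. The call of Nelfa (0.62) was lost without either liver library. Dux, the homeodomain activator of MERVL in the 2-cell embryo, reached at most 0.138 RPKM, in mesoderm A, and was listed at 0 in all ysE libraries. Of 32 genes of the 2-cell stage 10 passed the filter, none reached 1 RPKM in any library (highest 0.28), and Usp17le reached at most 0.077 RPKM in cystic EBs and was listed at 0 in ysE, so no test is given for it. Gm5039 reached at most 0.118 RPKM, in cystic EBs, and was listed at 0 in liver, so no test against liver is given for it. Without Usp17le, the calls between cystic EBs and ysE over the 3 lists were 4 repressors and 2 activators higher and 3 repressors lower. Of all transcripts 27.1% and 23.2% were called. With the 6 dUTP libraries alone, in which the EBs are clone JN, 14 were higher (33.7% of all transcripts), members at 0 in ysE not being set apart.

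Markers of pluripotent cells moved with the cystic EB libraries. Of Pou5f1, Nanog, Zfp42, Dppa5a and Sox2, 4 were called higher in cystic EBs than in E9.25 ysE (27.1% of all transcripts). Their summed RPKM was 361 and 255 in the JN libraries and 104 and 126 in the A9 libraries, while E9.25 ysE had 6.21 and 5.43 and mesoderm 1.10 and 1.26. None was at 0 in any E9.25 library. The part of such cells in the MERVL reads of cystic EBs was not tested.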

How the data were processed

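RNA was depleted of ribosomal RNA. The authors aligned reads to mm10 with GSNAP and made the deposited table of read counts per RepeatMasker element outside genes, without strand; how reads matching several copies were counted is not given in the sources used here. The authors also deposited counts and RPKM per RefSeq transcript, per the file headers. RPKM was used as deposited, without the TMM scaling of the fold changes. CpG methylation was deposited as a percent and a read count per CpG, called by the authors with BisSNP; reads were summed by repeat name over the 16 chromosomes that all files hold, and names with 50 reads in each library were kept. The authors deposited H3K4me3 peaks with a MACS (1.4.2) score from 1 library with input.

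Counts were summed by repeat name and tested with edgeR 4.0.16 (R 4.3.3; filterByExpr, TMM, quasi-likelihood, Benjamini-Hochberg FDR of 5%) over all names, elements or transcripts, with all groups of a table in 1 fit. Methylation was tested with edgeR on methylated and unmethylated reads. Alternatives used limma 3.58.1, DESeq2 1.42.0, other filters, left-out libraries and a replicate block. Steps were tested on simulated data. The fit of names recovered 33% of log2 changes of 1 and 100% of those of 2. That of elements recovered 0% at 4 and 7.22% at 6, with a common spread for all elements and for ysE against mesoderm alone. These element shares do not carry over to cystic EBs against ysE, where 371 MERVL-int copies were called higher. The methylation fit recovered 15.1% of changes of 10 points and 75.7% of 20 points. The gene fit recovered 55.7% of log2 changes of 2 and 100% of 4. False calls were 6.72%, 0%, 1.04% and 7.27% of all calls for names, elements, methylation and genes. A value that did not pass is thus not shown to be unchanged. CPM, reads per 1e6 repeat reads, was taken after TMM scaling. Intervals are not given, since reads of a library are not independent molecules. Other scripts used Python 3.11.15, pandas 2.3.3 and matplotlib 3.10.9, and promoter windows came from RefSeq (GRCm38.p6). The ERVL members and the gene lists were chosen with earlier results of these data known. Named were the MERVL and MT2 names, the 3 other names with most reads, the 3 largest changes per direction (methylation: per comparison) past the threshold without overlap, the 5 most-read MERVL-int or MT2_Mm elements, the 3 largest element changes per direction, and genes of the MERVL lists past the threshold, at most 8 per list. Other count files were not used here.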

Additional observations from a re-analysis of the deposited data

Results flagged for a closer look

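In the cystic EB group of 4 libraries, 37 genes were screened for a library that stands far from the other 3, by the ratio of the gap to the range. Chance marks about 1 in 20, and 3 were marked. Rnf2, a Polycomb ubiquitin ligase, was highest at d15 of clone JN, with 61.877 RPKM against 37.4, 37.0 and 39.9 in the others. E2f6, a repressor subunit of a non-canonical Polycomb complex, was highest at d10 of clone A9, with 9.921 RPKM against 7.57, 7.69 and 7.86. Apol7a, which starts in an MT2B1 element, was highest at d15 of clone A9, with 3.689 RPKM against 0.134, 0.562 and 0.654. No cause was tested.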

How the results depend on the processing

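The rise of MERVL-int and MT2_Mm in cystic EBs over ysE and their higher methylation in cystic EBs than in ysE passed in all alternatives run. Counts of called names moved with the libraries. Where no share is printed beside a count in this section, the share over all names, elements or transcripts in that fit is not given. Such a count is not shown to be particular to the ERVL members or listed genes. Between ysE and mesoderm, DESeq2 called 22 names higher (18.4% of all names), the fit of the 2 groups alone 2 higher and 5 lower, and the fit with the replicate block 0 higher and 1 lower. The 1 lower was MERVL-int, so every other ERVL name called between ysE and mesoderm lost its call with the block. Between cystic EBs and mesoderm, DESeq2 called 6 higher and 4 lower, the fit without RNA-gene repeats 1 higher, and that of the 2 groups alone 1 lower. With at least 50 reads per element, 14 elements were higher and 8 lower in ysE than in mesoderm, and merging called elements within 10 kb, chosen after seeing the data, left 242 loci lower in cystic EBs than in ysE. Peaks above the median score overlapped 168 elements.

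For methylation, names lower in ysE than in liver numbered 22 with at least 3 reads per CpG, 31 with at least 200 reads per library and 34 with the mean over elements. Names higher in cystic EBs than in liver numbered 0 with limma, 7 with at least 3 reads per CpG and 0 with the mean over elements, and those higher than in ysE numbered 31, 32 and 45 with at least 3 reads, at least 200 reads and the mean over elements. The filters on reads leave fewer names to test. On the 3 gene lists, the 6 dUTP libraries alone gave 14 higher in cystic EBs than in ysE, and 5 higher and 4 lower in ysE than in mesoderm. Members at 0 in a whole group were not set apart in these counts.

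Leaving out 1 library at a time gave 0 to 7 names higher and 0 to 2 lower between ysE and mesoderm, 3 to 17 higher and 1 to 17 lower between cystic EBs and ysE, and 0 to 1 in each direction between cystic EBs and mesoderm. No element passed in any of these fits (0 to 0 in each comparison and direction). Methylation gave 4 to 63 names lower in ysE than in liver, and 0 to 36 higher and 0 to 1 lower in cystic EBs than in liver. Gene lists gave 1 to 6 lower in cystic EBs than in ysE, 0 to 2 higher and 0 to 0 lower in ysE than in mesoderm, and 6 to 10 higher and 2 to 6 lower in cystic EBs than in liver.

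Among values past the threshold, 3 turned: without the most-read element, MLT2C2 gave -0.37 for ysE over mesoderm and 0.15 for cystic EBs over ysE, and LTR83 gave 0.25 for cystic EBs over ysE. Of the values of single names and genes under the alternatives, 1032 kept their direction and side of the threshold, 14 past it in neither setting changed sign, 229 lost the call and another 14 gained one. Same-numbered ysE and mesoderm libraries did not deviate together (correlation 0.0229 over 1193 names), nor did the crosses in WGBS (0.00202 to 0.0362). Whether same-numbered ysE and mesoderm libraries came from the same litters is not stated, and a low correlation cannot show that they did not. Each WGBS tissue had both crosses. With the replicate block methylation calls were 57, 25 and 71. The alternative on CpG positions called in all 6 libraries was not run, since only 44 names had enough reads there. Where no cause is named above, the cause was not tested.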
